A study of Homo sapiens with 16 samples.

Results

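The genes described here are 3 fibroblast growth factor (FGF) ligands and 7 genes that FGF signalling through the kinase ERK is known to switch on. They are the rows of the authors' deposited table whose gene symbol is FGF8, FGF17, FGF19, SPRY1, SPRY2, SPRY4, DUSP4, DUSP6, ETV4 or ETV5, which makes 10 of its 23284 genes, each with 1 row per comparison. Each was followed over 6 groups of human cells on their way to neural crest, the migratory embryonic cell population that gives rise to peripheral neurons, glia, pigment cells and facial skeleton.

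WA01 cells, an established human embryonic stem cell line, were plated at 20000 cells per cm2 and driven toward neural crest with 3 µM CHIR99021, an inhibitor of the kinase GSK3 that activates WNT signalling. In every group Y-27632 (10 µM), which blocks the kinase ROCK and helps dissociated cells survive, was added at the start. RNA was taken at day 3, labelled pre-neural crest, and at day 5, labelled neural crest. The labels give 16 libraries, with 2 replicates of each of 4 genotypes on each day. Of the genotypes, isoWT1 and isoWT2 are isogenic wild-type lines, and Het and KO are lines cut with Cas9 and a single guide RNA at the translational start of FOXB1, which encodes a forkhead transcription factor. The study asked how removing FOXB1 protein alters gene expression during this induction. Whether Het and KO are each 1 clone, and whether replicates are separate cultures, is not given in the sources used here. If replicates are not separate cultures, the p-values measure only a technical spread. If each line is 1 clone, the p-values do not measure the spread between clones.

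The authors' deposited table has 1 wild-type, 1 Het and 1 KO group per day, the last under the name HOMO. It does not state which of the 4 wild-type libraries of a day entered the wild-type group. It gives 1 level per gene and group in FPKM, that is sequenced fragments scaled to transcript length and to the mapped fragments of the library, so no value per library can be shown and the depth of each library is unknown. All levels, log2 changes and q-values below are taken from the authors' deposited table or, for standard errors (SE, log2 scale), implied by its test scores. A change was called, and is written as a rise or a fall, where the deposited q was below 0.05. Since RNA was extracted in bulk, fewer cells of a type and less RNA per cell cannot be told apart.

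FGF ligands are secreted and bind receptor tyrosine kinases, which switch on RAS, the RAF and MEK kinases and then ERK. ERK signalling raises transcription of its own brakes, among them the Sprouty proteins, which act between receptor and RAF, and dual-specificity phosphatases, which remove the activating phosphates from ERK. It also raises the ETS transcription factors ETV4 and ETV5, so the messenger RNA of these feedback genes is widely used as a readout of the pathway. In the embryo FGF8 and its relatives act at the neural plate border and at the midbrain-hindbrain boundary, and FGF works with WNT and BMP signals in neural crest induction.

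The labelled cell types were checked first. The 13 crest and border markers summed to 17.5, 91.9 and 117 FPKM in wild type, Het and KO at day 3, and to 62.6, 163 and 324 FPKM at day 5. In the wild-type group labelled neural crest, 9 of the 13 reached 1 FPKM, led by SNAI2 at 23.2 and PAX3 at 9.35 FPKM, while the defining crest genes SOX10 and FOXD3 stood at 0.388 and 0.198 FPKM. All 4 central neural markers reached 1 FPKM there, with SOX2 at 140, SOX1 at 24.2, SOX3 at 3.69 and PAX6 at 1.65 FPKM. FOXB1 itself measured 18.3, 7.73 and 15.5 FPKM in wild type, Het and KO at day 3 and 5.51, 4.47 and 1.86 FPKM at day 5, and an edit at the start codon need not lower the messenger RNA. Between 13100 and 13562 genes reached 1 FPKM per group.

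The KO cells held the highest level of every one of the 10 genes. The 3 ligands were highest in KO at day 3, and the 7 Sprouty, phosphatase and ETS genes were highest in KO at day 5. The lowest level was in wild type for 6 genes (2 at day 3, 4 at day 5) and in Het at day 5 for the other 4. All 10 genes reached 1 FPKM in both edited lines at day 3. At least 1 FPKM was reached by 8 genes in wild type at day 3, 6 in wild type and 6 in Het at day 5, and 8 in KO at day 5. The 2 profiles nearest to each other, after each gene's log2(FPKM + 0.1) values were centred over the 6 groups, were those of SPRY4 and ETV4 at a Euclidean distance of 0.89. The farthest were those of FGF19 and DUSP6 at 7.17. These distances describe 6 group values and carry no test.

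**Figure D1:**
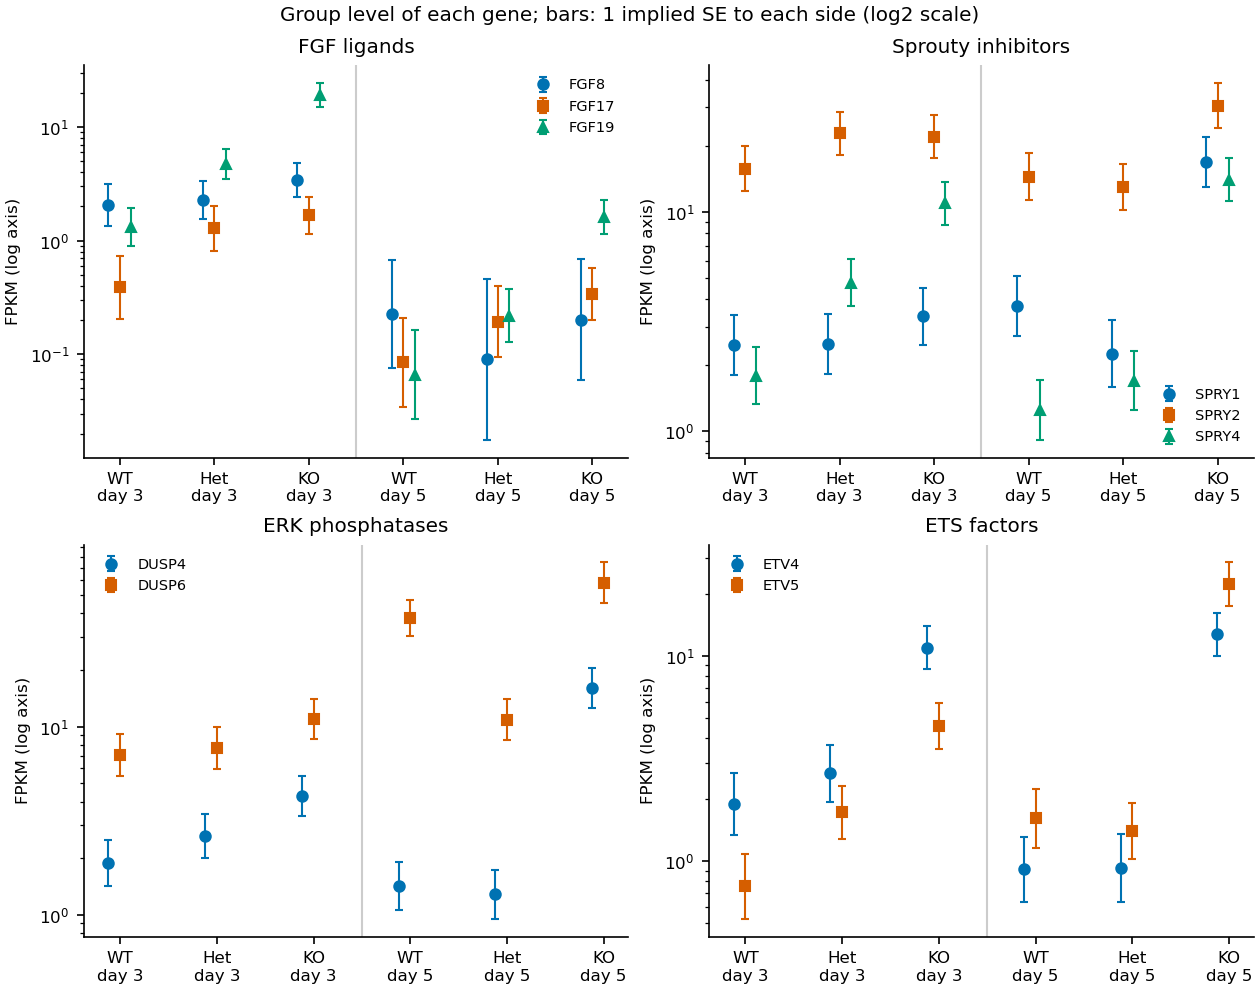
FPKM of each gene (log axis) in the 6 groups of line and day, with ligands, Sprouty genes, phosphatases and ETS factors in separate panels; bars are 1 implied SE to each side on the log2 scale. The ligands are all highest in KO at day 3, where FGF19 reached 19.1 FPKM, and the other 7 genes are highest in KO at day 5, up to 58.3 FPKM for DUSP6.

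Among the ligands, FGF19 alone was called between lines. FGF19, which encodes a ligand of the endocrine FGF subfamily that also signals locally in the embryo (chromosome 11, 69513006 to 69519106 in hg19), measured 1.32, 4.73 and 19.1 FPKM at day 3 in the wild-type, Het and KO groups. The day 5 levels were 0.0662, 0.219 and 1.62 FPKM in the same order. Wild type was lowest and KO highest on both days, and each line was lower at day 5. The deposited log2 change at day 3 was 3.86 (SE 0.65, q = 0.00126) in KO and 1.84 (SE 0.70, q = 0.00316) in Het against the same wild-type group. KO also stood above Het at day 3, by 2.01 (SE 0.57, deposited q = 0.00126). At day 5 the difference of KO from wild type was as large, 4.61, but its SE was 1.39 and the deposited q 0.109, so it was not called. It passed on a normal reading of the deposited test score, which takes the p of a normal scale and adjusts it within the comparison. It also passed with changes centred on expressed genes, on genes of like GC content (GC bins) or on its chromosome, all with the SE scaled to the deposited p-values. That scaling is a median over genes and shrinks the SE. For FGF19 here the deposited p, 0.0173, is larger than its score gives on a normal scale. The scaling thus moves its SE away from its own p. KO stood above Het at day 5 by 2.88 (SE 0.91, deposited q = 0.00935), a call lost on the normal reading. In the order of its levels, KO day 3 lay above Het day 3 and Het day 3 above KO day 5 (deposited q = 0.0228), while KO day 5 and wild type day 3 did not differ by the test (deposited q = 0.809).

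FGF8, the founding member of the subfamily that patterns the midbrain and the neural plate border (chromosome 10, 103529887 to 103540126 in hg19), measured 2.04, 2.28 and 3.43 FPKM in wild type, Het and KO at day 3. At day 5 it measured 0.226, 0.0903 and 0.202 FPKM. Its levels lay further apart between days than between lines: the lowest day 3 level was above the highest day 5 level. The day change was called in KO alone (deposited q = 0.0152), not in wild type (deposited q = 0.251) or Het (deposited q = 0.552). The KO to wild type difference at day 3 was 0.75 (SE 0.79, 95% interval -0.81 to 2.30, deposited q = 0.364), and no day 5 comparison between lines was tested. FGF17, a close relative of FGF8 (chromosome 8, 21900428 to 21906319 in hg19), measured 0.388, 1.28 and 1.67 FPKM at day 3 and 0.0845, 0.194 and 0.337 FPKM at day 5. On both days wild type was lowest, Het between and KO highest, and the wild-type level was under 1 FPKM. The level at day 3 was 4.30 times that of wild type in KO (95% interval on the log2 scale 0.03 to 4.18, deposited q = 0.059) and 3.30 times in Het (-0.50 to 3.94, deposited q = 0.123), so neither was called. Transcripts of FGF8 and FGF17 are rich in G and C (65.8% and 62.7%), and genes of like content had a median log2 difference of -0.82 and -0.52 in KO at day 3. With changes taken relative to such genes, and that scaled SE, both passed the threshold in KO at day 3, FGF8 at a log2 difference of 1.53 and FGF17 at 2.66. With the same SE and changes centred on all expressed genes, FGF17 also passed, at 2.11, and FGF8 did not, at 0.76. Centring hardly moved the FGF17 difference, so that pass came from the scaled SE. The scaled SE gave FGF17 a smaller adjusted p than its own deposited p did when adjusted within the comparison. Neither that adjustment nor the normal reading of the score called FGF17. Whether FGF8 or FGF17 passes relative to genes of like content without that scaling was not tested.

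The 3 genes whose profile over the 6 groups lay nearest to each ligand were found by the same distance, among the 14855 genes that reached 1 FPKM somewhere. For FGF8 they were KAL1 at 1.19, VAT1L at 1.24 and HRH3 at 1.24. For FGF17 they were OLFM3 at 0.52, LOC440925 at 0.64 and ZFHX2 at 0.66. For FGF19 they were PAX2 at 1.80, VSNL1 at 1.81 and LHX5 at 1.99. PAX2, for example, measured 1.27, 7.80 and 10.6 FPKM at day 3 and 0.219, 0.743 and 1.73 FPKM at day 5 in wild type, Het and KO.

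The Sprouty genes encode inhibitors that ERK signalling induces and that in turn dampen the receptor's signal. SPRY4 (chromosome 5, 141689992 to 141704620 in hg19) measured 1.79, 4.77 and 10.9 FPKM in wild type, Het and KO at day 3 and 1.26, 1.71 and 14.0 FPKM at day 5. At day 3 the lines formed a series, and at day 5 KO alone was high. The rise over wild type was 2.61 in KO (SE 0.54, deposited q = 0.00126) and 1.41 in Het (SE 0.56, deposited q = 0.00399) at day 3, and 3.48 in KO (SE 0.56, deposited q = 0.00126) at day 5. The Het difference at day 5 was 0.44 (SE 0.64, deposited q = 0.616). In the order of SPRY4 levels, KO at both days led without a called difference between them (deposited q = 0.617), Het day 3 came next, and the 3 lowest groups did not differ by the test.

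SPRY1 (chromosome 4, 124317956 to 124324909 in hg19) measured 2.47, 2.51 and 3.34 FPKM at day 3 and 3.73, 2.26 and 16.8 FPKM at day 5 in wild type, Het and KO. Its level in KO at day 5 stood apart from 5 groups between 2.26 and 3.73 FPKM, none of which differed from its neighbour in order by the test. The day 5 rise of SPRY1 in KO over wild type was 2.18 (SE 0.59, deposited q = 0.00126). SPRY2 (chromosome 13, 80910112 to 80915086 in hg19) had the highest levels of the 3 Sprouty genes in each group: 15.7, 22.8 and 22.1 FPKM at day 3 and 14.5, 13.0 and 30.5 FPKM at day 5. Its range over groups was the narrowest of the 3, and no neighbours in its order of levels differed by the test. SPRY2 rose in KO at day 5, by 1.08 over wild type (SE 0.49, deposited q = 0.0157) and by 1.23 over Het (SE 0.49, deposited q = 0.0111). Both calls were lost on the normal reading of the score.

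Promoter windows were read for the members that RefSeq's table (GRCh38.p14) holds, since the feedback genes were all highest in KO at day 5. There were 4 such members, SPRY1, SPRY2, SPRY4 and DUSP6, with 7 windows of the 250 bases before a transcription start. FGF8, FGF17, FGF19, DUSP4, ETV4 and ETV5 had no entry. The letters searched, on both strands, were CCGGAA (the core of ETS factors such as ETV4 and ETV5), CTTTGA (TCF/LEF, the factors of WNT signalling), TGANTCA (AP-1) and TGTTTNC (forkhead). No match overlapped another. Of all 35116 windows, 14.5% held the ETS letters, 11.2% the TCF/LEF letters, 6.57% the AP-1 letters and 15.5% the forkhead letters. The matched stretches of 30 bases follow, 5′ to 3′ along the gene, with the match in capitals. The first lies at chr4:123398307-123398336 (plus strand), the second at chr13:80339660-80339689 (minus strand), with 2 TCF/LEF matches that read on the other strand, and the third at chr13:80341251-80341280 (minus strand).
SPRY1, ETS letters: tgccctccgcagCCGGAAgggggccgcggg
SPRY2, TCF/LEF letters: atgggggttTCAAAGcacttTCAAAGggga
SPRY2, ETS letters: tccctgcctcctCCGGAAaggcgagggcgc
The SPRY1 match lies 67 to 62 bases before its start, the SPRY2 TCF/LEF matches 21 to 16 and 10 to 5 bases before one start, and the SPRY2 ETS match 142 to 137 bases before another. The bases just after that last start were found in no GENCODE 29 transcript of SPRY2. Those after the SPRY1 start and the other SPRY2 start were found in a transcript of their gene. The SPRY4 window held none of these letters. A match describes letters in the reference and was not measured as a binding site.

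Of the 2 phosphatases, DUSP6 was high at day 5 in wild type as well as in KO and DUSP4 in KO alone. DUSP6, a cytoplasmic phosphatase specific for ERK (chromosome 12, 89741837 to 89746296 in hg19), measured 7.07, 7.70 and 11.0 FPKM at day 3 in wild type, Het and KO. The day 5 levels were 37.7, 10.9 and 58.3 FPKM in the same order. Wild type and KO at day 5 formed the upper pair of levels and did not differ by the test (0.63, SE 0.48, 95% interval -0.31 to 1.57, deposited q = 0.184), and the other 4 groups lay between 7.07 and 11.0 FPKM without a called difference between neighbours. In Het at day 5 DUSP6 fell below wild type by 1.79 on the log2 scale (SE 0.48, deposited q = 0.00126), a call lost where the deposited test score was read on a normal scale. DUSP6 lies on chromosome 12, where expressed genes had a median log2 difference from wild type of -0.47 in KO at day 3 (677 genes, 89.2% below 0), -0.50 in KO at day 5 (679 genes) and -0.27 in Het at day 5 (694 genes). Less that median, DUSP6 was higher in KO by 1.11 at day 3 and 1.13 at day 5. Both passed the threshold with the SE scaled to the deposited p-values, which divided it by 1.61 and 1.55. Whether they pass without that scaling was not tested. The part of the chromosome in the DUSP6 values was not otherwise tested. Of the searched letters its window held the forkhead ones, the class of factor that FOXB1 belongs to, 180 to 174 bases before the start, at chr12:89352664-89352693 (GRCh38.p14, minus strand), shown with the match in capitals.
DUSP6, forkhead letters: gctgttgcagctTGTTTGCactggggctta

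DUSP4, a nuclear phosphatase of ERK and related kinases (chromosome 8, 29190579 to 29208267 in hg19), measured 1.89, 2.63 and 4.28 FPKM in wild type, Het and KO at day 3 and 1.43, 1.28 and 16.0 FPKM at day 5. KO was highest on both days, and its day 5 level was the only one above 5 FPKM. DUSP4 rose in KO over wild type by 1.18 at day 3 (SE 0.54, deposited q = 0.00749) and by 3.49 at day 5 (SE 0.55, deposited q = 0.00126). The day 3 call was lost on the normal reading of the score. In Het the differences were 0.48 at day 3 and -0.15 at day 5, neither called.

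ETV4 and ETV5, ETS factors of the PEA3 group that carry the ERK signal to transcription, rose in KO on both days. ETV4 (chromosome 17, 41605211 to 41623762 in hg19) measured 1.90, 2.68 and 11.0 FPKM in wild type, Het and KO at day 3 and 0.911, 0.928 and 12.8 FPKM at day 5. The KO levels stood above every other group on both days and did not differ from each other by the test (deposited q = 0.849). ETV4 rose in KO over wild type by 2.53 at day 3 (SE 0.62, deposited q = 0.00126) and by 3.81 at day 5 (SE 0.63, deposited q = 0.00126). ETV5 (chromosome 3, 185764106 to 185826901 in hg19) measured 0.754, 1.73 and 4.54 FPKM at day 3 and 1.61, 1.41 and 22.4 FPKM at day 5. Its KO level at day 5 was above its KO level at day 3, which in turn was above the other 4 groups. ETV5 rose in KO by 2.59 at day 3 (SE 0.65, deposited q = 0.00126) and by 3.80 at day 5 (SE 0.59, deposited q = 0.00126). In Het at day 3 ETV5 differed from wild type by 1.20 (SE 0.68, deposited q = 0.0572), which was not called.

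Counted together, 5 of the 10 genes rose and 0 fell in KO against wild type at day 3, where 4.34% of all tested genes rose and 5.17% fell. The 5 were FGF19, SPRY4, DUSP4, ETV4 and ETV5, and the median log2 difference over the 10 was 1.64, beside -0.02 over all tested genes. At day 5, 6 of 8 tested rose and 0 fell, where 7.58% of all tested genes rose and 5.68% fell. These were SPRY1, SPRY2, SPRY4, DUSP4, ETV4 and ETV5, with a median of 3.49 over the 8, beside 0.04 over all tested genes. The normal reading of the score also called 6 at day 5, FGF19 in place of SPRY2. In Het against wild type, 2 of 10 rose at day 3 and 0 fell, where 1.68% of tested genes rose and 4.63% fell, with a median of 0.51 beside -0.04. At day 5, 0 of 7 tested rose and 1 fell, where 1.14% of tested genes rose and 1.02% fell, with a median of -0.16 beside -0.03. Both Het calls at day 3, FGF19 and SPRY4, were lost on the normal reading of the deposited score. KO and Het were each compared with the same wild-type group, so these counts are not independent of each other. The 10 genes were also chosen with earlier results of these data known. Any excess over the share of all genes is therefore not an independent test.

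**Figure D2:**
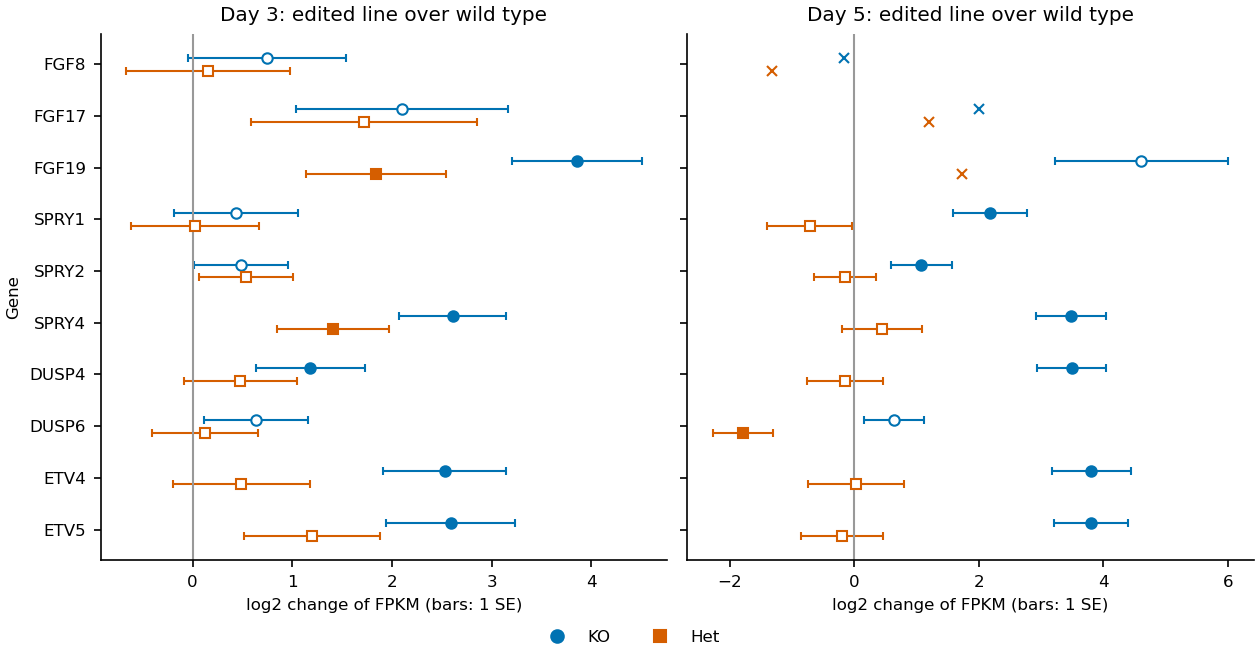
Log2 change of FPKM in KO (circles) and Het (squares) against wild type for each gene at day 3 and day 5; bars are 1 SE, filled symbols passed a deposited q of 0.05, open symbols did not, and crosses were not tested. In KO every filled symbol lies to the right of 0, and in Het FGF19 and SPRY4 at day 3 (right) and DUSP6 at day 5 (left) are the filled ones.

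KO and Het could also be compared with each other, without the wild-type group. At day 3, 4 of the 10 genes (FGF19, SPRY4, ETV4 and ETV5) were higher in KO and 0 lower, where 2.3% of all tested genes were higher and 0.54% lower. All 4 of these calls were lost on the normal reading of the deposited score. At day 5, all 8 genes tested were higher in KO, where 5.55% of all tested genes were higher and 2.51% lower. The normal reading kept 6 of the 8, without FGF19 and SPRY2. Those differences ran from 1.23 for SPRY2 (SE 0.49, deposited q = 0.0111) to 3.99 for ETV5 (SE 0.58, deposited q = 0.00126). DUSP6, not called against wild type, was 58.3 FPKM in KO and 10.9 in Het at day 5, a log2 difference of 2.42 (SE 0.51, deposited q = 0.00126). FGF8 and FGF17 were not tested at day 5.

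Each ligand was lower at day 5 than at day 3 in every line, with FGF19 called in all 3, while the calls of the feedback genes differed from line to line. In wild type, 1 of 9 genes tested rose and 1 fell, where 11.2% of all tested genes rose and 10.4% fell. Adjustment within the comparison gave 4 calls in wild type, adding ETV4 and ETV5, and the normal reading of the score 1, DUSP6. With the scaled SE, which is smaller, centring gave 5 and GC bins 4. DUSP6 rose by 2.41 (SE 0.50, deposited q = 0.00126) and FGF19 fell by 4.32 (SE 1.41, deposited q = 0.0308). In Het, 0 of 10 rose and 4 fell, where 4.74% of all tested genes rose and 2.83% fell. The log2 changes were -2.72 for FGF17 (SE 1.24, deposited q = 0.0434), -4.43 for FGF19 (SE 0.89, deposited q = 0.00126), -1.48 for SPRY4 (SE 0.58, deposited q = 0.00615) and -1.53 for ETV4 (SE 0.72, deposited q = 0.0342). Of the 4, FGF19 alone passed the normal reading of the score.

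In KO, 4 of 10 genes rose and 2 fell from day 3 to day 5, where 7.29% of all tested genes rose and 4.53% fell. SPRY1 rose by 2.33 (SE 0.57), DUSP4 by 1.91 (SE 0.51), DUSP6 by 2.41 (SE 0.51) and ETV5 by 2.30 (SE 0.51), each with a deposited q of 0.00126. FGF8 fell by 4.09 (SE 1.83, deposited q = 0.0152), a call lost on the normal reading, and FGF19 fell by 3.56 (SE 0.60, deposited q = 0.00126). SPRY2, SPRY4 and ETV4 differed between the days by 0.47, 0.36 and 0.21, none of them called. In KO 2 ligands thus fell while 4 feedback genes rose.

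**Figure D3:**
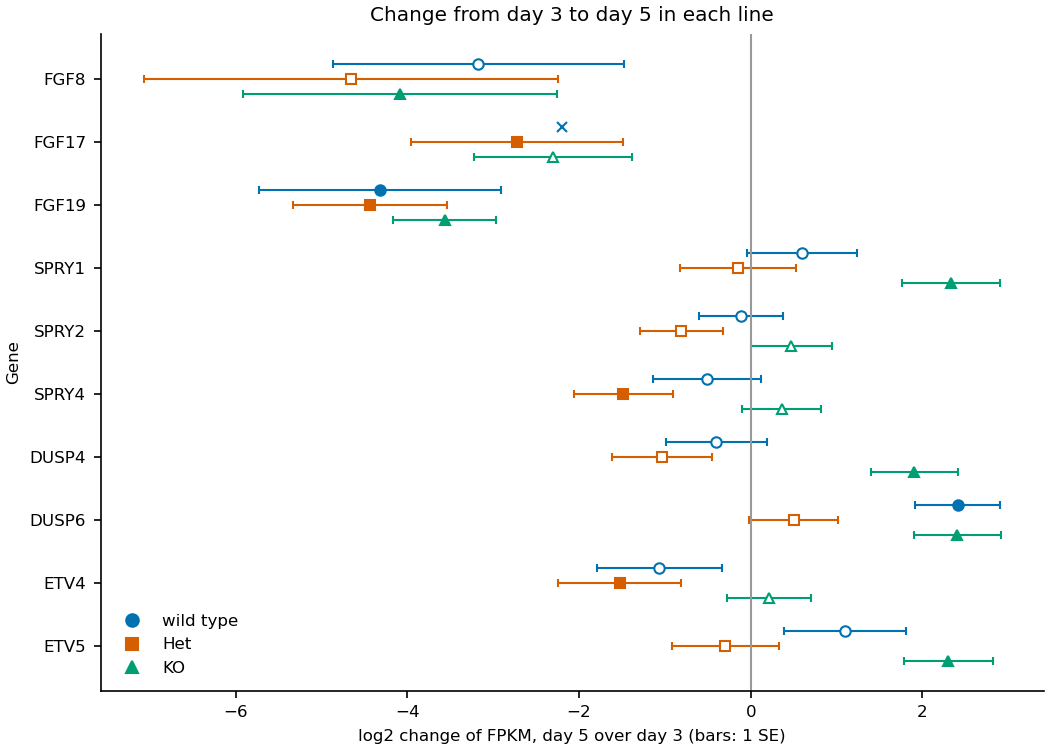
Log2 change of FPKM from day 3 to day 5 for each gene in wild type (circles), Het (squares) and KO (triangles); bars are 1 SE, filled symbols passed a deposited q of 0.05, and the cross for FGF17 in wild type was not tested. All ligand symbols lie left of 0, DUSP6 in wild type and KO lies at 2.41, and SPRY1, DUSP4 and ETV5 are filled on the right in KO alone.

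Whether these day changes differed between lines was tested as a difference of the 2 log2 changes over its implied SE, with Benjamini-Hochberg adjustment over all genes. None of the 9 members tested was called between KO and wild type, where 0.205% of all genes had a higher and 0.113% a lower change in KO. At an unadjusted p under 0.05 there were 2, DUSP4 with a difference of 2.31 (SE 0.78, 95% interval 0.79 to 3.83) and SPRY1 with 1.74 (SE 0.86, 95% interval 0.06 to 3.42). In the median over genes, the deposited p-values are smaller than the scores give on a normal scale. With the SE scaled to them these 2 were called, where 3.05% of all genes were called higher. None of 9 was called between Het and wild type, where 0.0702% of genes were higher and 0.0421% lower. DUSP6, at -1.91 (SE 0.72, 95% interval -3.32 to -0.51), was the 1 member at an unadjusted p under 0.05, and with the scaled SE the 1 called, where 0.386% of genes were called lower.

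None of 10 was called between KO and Het, where 0.0775% of genes were higher and 0.0423% lower. This comparison was added after the values were seen. At an unadjusted p under 0.05 there were 6, all higher in KO: SPRY1, SPRY4, DUSP4, DUSP6, ETV4 and ETV5. The largest was DUSP4 at 2.94 (SE 0.77, 95% interval 1.43 to 4.45), whose day change was -1.03 in Het, not called, and 1.91 in KO. With the scaled SE, 5 were called (the 6 less ETV4), where 0.796% of genes were called higher. For the ligands, the intervals of the difference between KO and Het were wide, from -1.24 to 2.98 for FGF19 and from -5.37 to 6.51 for FGF8.

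The rest of the pathway was read from 4 lists: other FGF ligands, receptors with their co-receptors and binding proteins, the RAS and ERK cascade, and other ERK feedback and target genes. Of 19 other FGF ligands, 9 were tested in KO against wild type at day 3, and 2 rose and 0 fell (median 0.14), where 4.34% of all tested genes rose and 5.17% fell. FGF1 rose from 0.0961 to 0.864 FPKM (3.17, SE 0.98, deposited q = 0.00126) and FGF12, an intracellular member of the family, from 3.07 to 7.78 FPKM (1.34, SE 0.46, deposited q = 0.00126). At day 5, 0 of 8 rose and 4 fell, where 7.58% of all tested genes rose and 5.68% fell. The day 5 median was -1.40 over the 8 tested, with FGF10 counted as the lowest, but -0.61 over the 17 with a level in either group on the log2(FPKM + 0.1) scale and -0.074 with a pseudocount of 1. FGF10 was 0.734 FPKM in wild type and listed at 0 in KO, FGF23 fell (-2.41, SE 0.85, deposited q = 0.0142), and so did FGF13, also intracellular (-2.02, SE 0.53, deposited q = 0.00126). The fourth was FGF2. FGF1 and FGF12 were thus the genes of this list called in the direction of FGF19 in KO against wild type, both at day 3. The list takes genes by family, so it holds intracellular members such as FGF12, which are not secreted ligands. FGF1 was under 1 FPKM in both groups, and FGF12 differed by -0.65 at day 5, not called. In Het against wild type, FGF12 alone rose among 8 tested at day 3, where 1.68% of all tested genes rose, and none of 8 was called at day 5.

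Of 12 receptor and co-receptor genes, 9 were tested in KO at day 3, and 2 rose and 4 fell, where 4.34% of all tested genes rose and 5.17% fell. The median was -0.43 over the 9 and -0.16 over all 12 on the log2(FPKM + 0.1) scale. FGFR3, a receptor, measured 48.1, 17.8 and 17.2 FPKM in wild type, Het and KO at day 3 and 36.6, 22.4 and 4.39 FPKM at day 5, lowest in KO on both days. At day 3 FGFR3 fell both in KO (-1.49, SE 0.43) and in Het (-1.44, SE 0.42), and at day 5 it fell in KO (-3.06, SE 0.52), each with a deposited q of 0.00126. FGFRL1, a receptor without a kinase domain, fell in KO at day 3 from 4.97 to 0.898 FPKM (-2.47, SE 0.58, deposited q = 0.00126), and FLRT2, a transmembrane partner of FGF receptors, rose by 1.39 (SE 0.54, deposited q = 0.00227). At day 5, 1 of 8 tested rose and 3 fell in KO (median -0.82), where 7.58% of all tested genes rose and 5.68% fell. Among the 3 was FGFBP3, a secreted FGF-binding protein, from 198 to 53.0 FPKM (-1.90, SE 0.41, deposited q = 0.00126). In Het 1 of 9 rose and 3 fell at day 3, where 1.68% of all tested genes rose and 4.63% fell, and none of 8 was called at day 5. FGFR2, a receptor at 52.0 FPKM in KO at day 3 and 45.7 at day 5, was not called against wild type on either day.

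Of 19 genes reported from the cascade between receptor and ERK, 18 were tested in each comparison. In KO, 1 rose and 1 fell at day 3 (median 0.05), where 4.34% of all tested genes rose and 5.17% fell. At day 5, 1 rose and 1 fell (median -0.03), where 7.58% rose and 5.68% fell, so on both days the count was near that over all genes. SHC1, an adaptor, rose on both days, from 40.4 to 80.6 FPKM at day 3 (1.00, SE 0.41, deposited q = 0.00399) and from 42.9 to 100 FPKM at day 5 (1.22, SE 0.43, deposited q = 0.00126). SHC1 lies on the long arm of chromosome 1, where expressed genes had a median difference of 0.60 in KO at day 3 (576 genes) and 0.37 at day 5 (572 genes). MAP2K2, one of the MEK kinases, fell at day 3 (-0.85, SE 0.45, deposited q = 0.0353). FRS2, an adaptor, fell at day 5 (-1.12, SE 0.43, deposited q = 0.00227). It lies on chromosome 12, whose median is given above. In Het none of the 18 was called on either day, where 1.68% of all tested genes rose and 4.63% fell at day 3 and 1.14% and 1.02% at day 5.

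Of 16 other ERK feedback and target genes, 14 were tested in KO at day 3, and 3 rose and 0 fell (median 0.14), where 4.34% of all tested genes rose and 5.17% fell. ETV1, the remaining PEA3 factor, rose from 2.54 to 9.42 FPKM (1.89, SE 0.48, deposited q = 0.00126). IL17RD, a membrane inhibitor of FGF signalling also called SEF, rose by 1.79 (SE 0.46, deposited q = 0.00126), and DUSP5, a nuclear ERK phosphatase, by 1.43 (SE 0.54, deposited q = 0.00126). At day 5, 3 of 15 rose and 3 fell (median 0.18), where 7.58% of all tested genes rose and 5.68% fell. ETV1 rose from 2.87 to 14.6 FPKM (2.35, SE 0.56, deposited q = 0.00126), PHLDA1 from 3.45 to 14.2 FPKM (2.03, SE 0.52, deposited q = 0.00126) and IL17RD by 1.85 (SE 0.49, deposited q = 0.00126). The 3 that fell were the immediate early genes EGR1 (-1.78, SE 0.53, deposited q = 0.00126) and FOS (-1.69, SE 0.60, deposited q = 0.00126) and the cyclin gene CCND1, from 115 to 57.2 FPKM (deposited q = 0.00476). In KO these 3, like FGF2 above, fall outside the rule for named genes and were named after their values were seen.

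In Het, 2 of 13 of these target genes rose and 2 fell at day 3, where 1.68% of all tested genes rose and 4.63% fell. At day 5, 1 of 14 rose and 3 fell, where 1.14% rose and 1.02% fell. FOSL1, an AP-1 subunit, fell at day 3 from 4.94 to 0.558 FPKM (-3.15, SE 0.73, deposited q = 0.00126), IL17RD rose by 1.40 (SE 0.48, deposited q = 0.00126) and ETV1 rose by 1.35 (SE 0.49, deposited q = 0.00227). At day 5 FOS fell (-1.55, SE 0.56, deposited q = 0.00227), as did DUSP5 (-1.47, SE 0.56, deposited q = 0.00874) and EGR1 (-1.38, SE 0.49, deposited q = 0.00126). EGR1 and FOS were thus lower than wild type at day 5 in both edited lines, in KO beside a called rise of SPRY4, DUSP4, ETV4 and ETV5 and in Het beside levels of these 4 that were not called. The edited lines share the wild-type group in these comparisons.

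**Figure D4:**
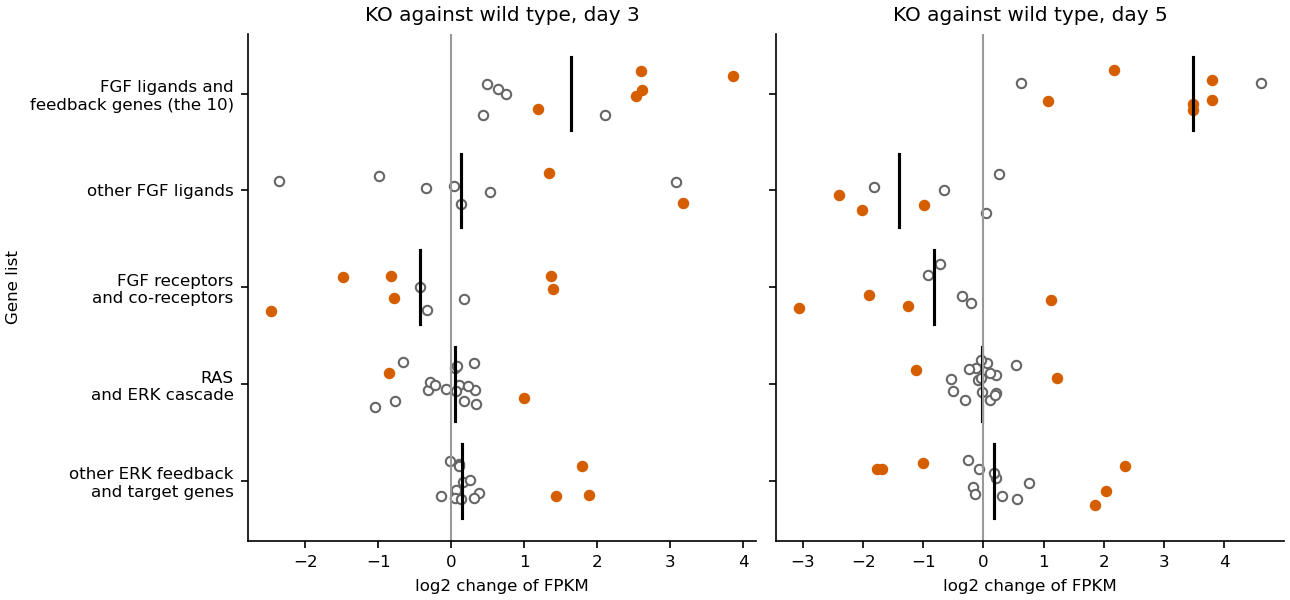
Log2 change of FPKM in KO against wild type at day 3 and day 5 for tested genes of the 10 FGF and feedback genes and of the 4 other pathway lists; filled points passed a deposited q of 0.05, and vertical lines are list medians. FGF10, listed at 0 in KO at day 5, enters its list's median as the lowest value and has no point. The 10 genes and the lists were chosen with earlier results of these data known. The medians of the 10 genes, 1.64 and 3.49, lie to the right of those of the other lists, which run from -1.40 to 0.18; the -1.40, of other FGF ligands at day 5, is over 8 tested genes and is -0.61 over the 17 with a level in either group.

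Markers of other cell types differed between lines and days. The 6 mesendoderm markers summed to 0.912, 0.767 and 16.7 FPKM in wild type, Het and KO at day 3, with 3 of the 6 at 1 FPKM or more in KO and none in the other lines, and to 0.559, 0.577 and 2.76 FPKM at day 5. In wild type at day 3, 2 of the 6 were at 0. The 3 pluripotency markers summed to 61.0, 19.0 and 83.7 FPKM at day 3 and to 5.08, 6.36 and 10.3 FPKM at day 5. The sums were higher at day 3 in each line, as the ligands were. POU5F1 was the largest part of each sum, and NANOG in Het was not higher at day 3 (0.797 FPKM, and 0.944 at day 5). The 4 central neural markers summed to 198, 105 and 80.5 FPKM at day 3 and 169, 123 and 60.6 FPKM at day 5, and the 5 epidermis and placode markers to between 0.902 and 6.24 FPKM, the highest in KO at day 5. The sums of crest and border markers, given above, were highest in KO on each day, as were the levels of 6 of the 7 feedback genes at day 3 (SPRY2 was 22.8 FPKM in Het and 22.1 in KO) and of all 7 at day 5. The part of these cell types in the FGF and feedback values was not tested.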

How the data were processed

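Poly-adenylated RNA of WA01 cells was sequenced in 16 libraries. Per the submitters' processing notes, reads were aligned with TopHat2 2.1.1 to hg19 and groups were compared with Cuffdiff 2.2.1; for annotation, strandedness and filters the step is not given in the sources used here. Levels were deposited as FPKM, 1 for each gene in each group. The authors' deposited log2 changes, test score, p-value and q-value cover 15 comparisons of 6 groups, of which 9 were used, and the other 6 only where they compare neighbours in an order of levels. No deposited p-value is under 5e-05, and the q-value is adjusted over 222234 tests. The choice of 2 wild-type lines as separate controls could not be kept, since the table has 1 wild-type group, and HOMO was read as KO. A gene's deposited start counts from 0 and was raised by 1.

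The members and gene lists were chosen with earlier results of these data known. 1 gene of the cascade list is not reported here. Of the lists, up to 3 called genes by size per edited line and day were named. SE is the log2 change over the test score. Implied variances added up per group (median relative error 1.92e-06 over 13399 genes). Differences of day changes used a 2-sided normal p with Benjamini-Hochberg adjustment, and the script was tested on simulated data. Changes were also taken within 20 GC bins (GENCODE 29 transcripts), less chromosome medians and centred, in each case with the SE scaled to the deposited p-values, and with a pseudocount of 1 in place of 0.1. The normal reading of a score took its 2-sided normal p, adjusted within the comparison, in place of the deposited p-value. A count model and replicate checks need library values, which were not analysed here. Python 3.11.15 with pandas 2.3.3, numpy 2.4.6, scipy 1.17.1 and matplotlib 3.10.9 was used. No other row of the table overlapped a member's locus.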

Additional observations from a re-analysis of the deposited data

How the results depend on the processing

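The 9 counts of called members and 3 counts of differing day changes were recomputed under each alternative that applied. No paired analysis was possible because the deposited table holds 1 value per group and none per library, and for the same reason no replicate could be left out. Of 38 called values of single members, 0 were lost and 0 changed sign with centring on expressed genes, within GC bins or less chromosome medians. These 3 settings also divided the SE by 1.41 to 1.83, which makes a lost call unlikely. They thus do not show how the calls fare without that scaling. Of the same 38, 3 were lost with adjustment within the comparison and 16 on the normal reading of the test score. With log2 of FPKM plus 1, 16 of the 38 moved by more than 1 SE, toward 0 by that setting's construction. The normal reading left 0 called members in Het against wild type at day 3, 0 at day 5, 0 in KO against Het at day 3, 1 in the wild-type time course and 1 in that of Het. Adjustment within the comparison gave 4 in the wild-type time course and 2 in that of Het. A level of 1 FPKM in both groups left 1 in each, since fewer genes are then eligible. Centring gave 5 and GC bins 4 in the wild-type time course, both with the scaled SE. Centring there took only 0.028 off each log2 change, while the scaling divided each SE by 1.83. The GC bins were not tested apart from the scaling. With the SE scaled, 2 members differed in day change between KO and wild type, 1 between Het and wild type and 5 between KO and Het. Values that changed sign were uncalled ones near 0: SPRY1 in Het at day 3 was -0.10 within GC bins and -0.12 less its chromosome's median, ETV4 in Het at day 5 was -0.065 and -0.0039, and SPRY2 in KO against Het at day 3 was 0.025 less its chromosome's median. Depth is unknown, so no limit of detection can be given for ligands under 1 FPKM.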
